A study of Mus musculus with 24 samples.

Results

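Gene expression in the lungs of BALB/c mice 14 d after bleomycin was compared with that in BALB/c lungs 14 d after saline. The comparison rests on 4 of the 24 microarrays of the series, chosen by their titles and by no measured value. Arrays a and b of the bleomycin group held total RNA from mouse lung taken 14 d after a dose of 1.5 U per kg into the trachea, and arrays a and b of the saline group came from lungs of the same strain and day after saline given the same way. No source used here states the age or sex of the animals, whether animals were pooled, or whether a and b came from separate mice, so the p-values measure only the spread between such pairs of arrays, which may be technical. By their titles the other arrays hold BALB/c and C57BL/6J lung after bleomycin or saline at 24 h, 72 h and 14 d. In earlier work on these data, strain genes went against the strain labels of the saline arrays of 72 h, so these labels are doubtful. Those arrays enter only the shared variance. By its title the series asks how genotype sets the susceptibility of the lung to fibrosis.

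Bleomycin is a glycopeptide drug that breaks DNA, and it is inactivated by bleomycin hydrolase, encoded by Blmh, which is scarce in lung. A dose into the trachea injures the alveolar epithelium and the capillary endothelium. Monocytes and macrophages then enter the lung, and fibroblasts lay down and crosslink collagen in the weeks that follow. BALB/c is commonly described as less prone to this fibrosis than C57BL/6J.

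The values were intensities of 12488 probe sets (groups of short probes for one transcript), and 8710 probe sets above an intensity of 225.7 on at least 2 of the 24 arrays were tested. Tests were made with limma on log2(intensity + 92) in 1 model of all 24 arrays. Changes are bleomycin minus saline on that scale, with the standard error of the model, and understate the change of dim genes. A probe set was called higher or lower at a Benjamini-Hochberg adjusted p under 0.05 over all probe sets tested. For each of 6464 genes a single probe set was used, that of the highest mean across the 24 arrays. Intensities of different probe sets cannot be set against each other. Where bleomycin and saline arrays are said not to overlap, this only describes the values. The share of all probe sets without overlap was not counted, so this adds no support to a call.

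The 4 arrays had like medians, 398 and 396.0 after bleomycin and 383 and 393 after saline, but unlike bright ends. The highest intensities were 10674 and 6888 on bleomycin arrays a and b, against 14092 and 13856 on the saline arrays. The control spike CreX (5′ probe set) read 7898 and 6259 after bleomycin and 12410 and 12076 after saline, and the middle probe set of beta-actin 1176 and 448 against 9150 and 8805. Probe sets whose saline mean lay above 6888 are therefore described apart, as the brightest. There were 182 of them. Since 6888 is the highest intensity of bleomycin array b, each of them reads below its saline mean on that array by construction. On the log2 scale the median of bleomycin array b minus array a was -0.72 over the brightest and 0.04 over the other probe sets, and for the saline arrays it was -0.03 over the brightest. Across probe sets, which are not independent replicates, the pair of bleomycin arrays correlated with r = 0.959 and the pair of saline arrays with r = 0.984.

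After bleomycin 688 probe sets were higher, which is 7.90% of those tested, and 470 were lower (5.40%). Of the lower ones 77 were among the 182 brightest (42.3% of them) and 393 were not (4.61% of the other 8528), while none of the brightest was higher (0 at an adjusted p under 0.05). The counts among the brightest are in part set in advance, because their choice fixes a lower reading on bleomycin array b. The share of probe sets called lower grew with the saline level, from 0.938% at intensities up to 250 to 13.2% between 4000 and 6888, and no probe set above 4000 was higher. The median change was -0.23 between 4000 and 6888 and -0.80 among the brightest, against 0.04 over all probe sets tested. By gene, 557 were higher (8.62% of 6464) and 297 lower (4.59%), 245 of the latter outside the brightest (3.87%). The part of the bright end of the bleomycin arrays in the falls was not tested.

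**Figure D1:**
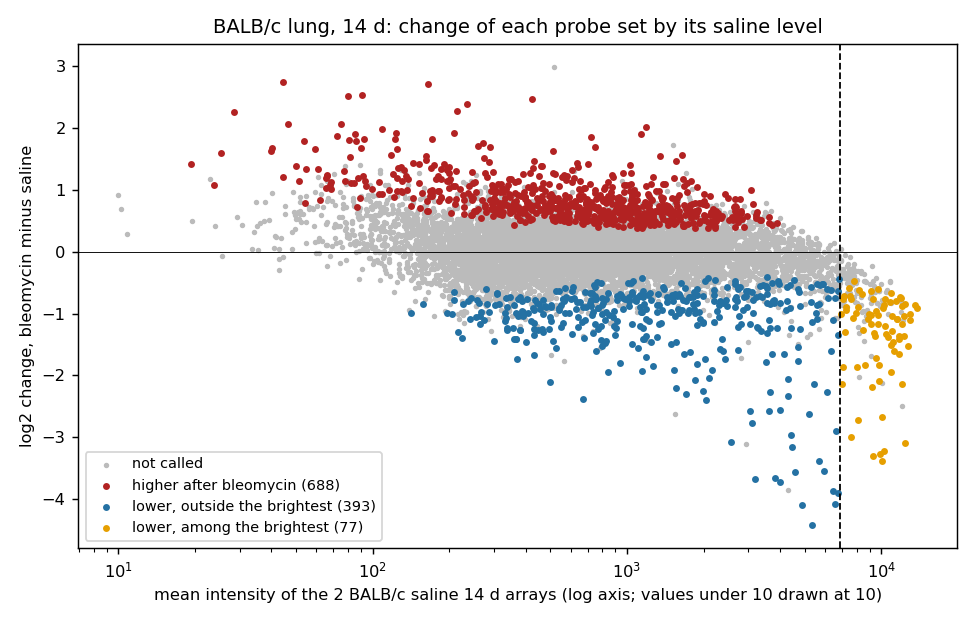
Change of each of the 8710 tested probe sets (y axis, log2, bleomycin minus saline) against its mean intensity on the 2 saline arrays of 14 d (x axis, log scale). Red points were called higher (688), blue points lower outside the brightest (393) and orange points lower among the brightest (77), right of the dashed line at 6888, while no red point lies above a saline intensity of 4000.

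The number called depended on single arrays. Without bleomycin array a, 829 probe sets were higher and 482 lower outside the brightest. Without bleomycin array b the counts were 115 and 80, without saline array a 173 and 92, and without saline array b 218 and 93. Under all 4 of these, 81 of the higher probe sets, 48 of the lower ones outside the brightest and 3 of the lower ones among the brightest remained called. A further control is the pair of BALB/c saline arrays of 24 h, used after the values were seen. Against it 284 probe sets were higher (3.26%) and 220 lower (2.53%). By gene, 224 were higher against it (3.47%) and 146 lower (2.26%), and 130 were higher against both saline groups (2.01%) and 104 lower (1.61%). That control has a limit of its own, since its array b stood high for genes of acute inflammation (Saa3 read 477 and 6917 and Lcn2 1323 and 11847 on its arrays a and b).

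The labelled tissue was checked against marker genes. The summed intensity of 6 lung markers was 6065 and 6729 after bleomycin and 21171 and 19227 after saline, and 3 of the 6 were lower (Sftpb, Scgb1a1 and Ager). The surfactant gene Sftpc, a defining marker of alveolar type 2 cells, was dim on all 4 arrays, at 288 and 5.78 after bleomycin and 594 and 540.2 after saline. Heart muscle markers were present on all 4 arrays and 0 of 5 were called, with sums of 9978 and 9924 after bleomycin and 11727 and 11662 after saline. The sum of 4 macrophage markers was higher after bleomycin, 3826 and 3932 against 2070 and 1928, and 1 of them rose, Cd68. Neutrophil markers summed to 4422 and 4624 against 3825 and 3104, with 0 of the 2 tested called. Of the tested markers of B and plasma cells (5), T cells (3), thymus (2), red cells (2), fat (1), squamous epithelium (2), liver (2) and mesothelium (2), none was called (0 in all). In whole lung RNA, fewer cells of a type and less RNA per cell cannot be told apart.

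Genes of the extracellular matrix rose in part. Of 8 tested genes of fibrillar collagens 3 rose and 0 fell, with a median change of 0.55, against a median of 0.06 and 8.62% risen over all genes. Of 25 genes of basement membranes and other collagens 7 rose and 0 fell, with a median of 0.41. Against saline 24 h 4 and 9 were higher, and against both saline groups 3 and 6. The changes of the 10 genes called lay between 0.67 (Lamb1) and 1.17 (Col6a2). A further probe set of Lamb1 differed by 0.27 (adjusted p = 0.459). Those of Col18a1, also called, differed by 0.77, 0.70 and 0.43 (adjusted p = 0.0397, 0.226 and 0.278).

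Col5a2 encodes a chain of collagen V, which sets the diameter of collagen fibrils. It read 3929.7 and 4180.0 on bleomycin arrays a and b and 1636 and 1947 on saline arrays a and b, so that both bleomycin arrays lay above both saline arrays. Its change was 1.14 ± 0.23 (adjusted p = 0.00555). The call was lost without the bleomycin b array (adjusted p = 0.0566) or the saline a array (0.0647). Col1a2, a chain of collagen I, read 3858 and 4991 against 2505 and 2761, again without overlap, with a change of 0.72 ± 0.19 (adjusted p = 0.023), lost without the bleomycin b array (adjusted p = 0.224), the saline a array (0.153) or the saline b array (0.0849). A further probe set of Col1a2 read 3214 and 1952 against 2851 and 2999, with overlap, and differed by -0.21 (adjusted p = 0.575). Col14a1, a collagen that coats fibrils, read 706 and 622 against 253 and 332 and changed by 0.98 ± 0.20 (adjusted p = 0.00526), lost without the saline a array (adjusted p = 0.0716).

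Col6a2, a chain of the microfibrillar collagen VI, read 3598 and 4116 after bleomycin and 1581 and 1732 after saline, a change of 1.17 ± 0.20 (adjusted p = 0.00194). Col7a1, which builds the anchoring fibrils under epithelium, read 775 and 865 against 320.5 and 359 (1.08 ± 0.18, adjusted p = 0.00158). Col8a1, a network-forming collagen, read 499.7 and 518 against 217 and 235 (0.92 ± 0.17, adjusted p = 0.00347). The groups did not overlap for any of these 3 genes. Lamb3, the beta chain of the epithelial laminin 332, read 2421 and 2220.5 against 1233 and 1285 (0.84 ± 0.16, adjusted p = 0.00319). These 4 genes stayed called whichever of the 4 arrays was left out. Lamb1, Col15a1 and Col18a1 also rose, by 0.67, 0.76 and 0.84, but each call was lost without single arrays (for Lamb1 without bleomycin b or saline a, up to 0.113, for Col15a1 without bleomycin b, saline a or saline b, up to 0.301, for Col18a1 without bleomycin b, saline a or saline b, up to 0.069, as adjusted p).

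Genes that process and crosslink collagen rose in 4 of 13 cases, and 1 fell, against 8.62% risen and 4.59% fallen over all genes. The lysyl oxidases Lox and Loxl1 start the crosslinks of collagen and elastin. Loxl1 read 712 and 717 after bleomycin and 299.9 and 394 after saline, and Lox 1317 and 1637 against 549 and 609. Both were higher on each bleomycin array than on each saline array, with changes of 0.89 ± 0.18 (adjusted p = 0.00533) and 1.22 ± 0.33 (adjusted p = 0.0233). Bmp1, the protease that trims procollagen, rose by 0.88 (adjusted p = 0.00383), but a further probe set differed by -0.02 (adjusted p = 0.962). Crtap, a partner of prolyl 3-hydroxylase, rose by 0.65 (adjusted p = 0.0109). P4hb, a protein disulfide isomerase that is also a subunit of prolyl 4-hydroxylase, read 374 and 311 against 1533 and 1532 on a probe set of relaxed design and changed by -1.91 ± 0.53 (adjusted p = 0.0251). All 5 calls were lost without single arrays, with adjusted p for Loxl1 without bleomycin b or saline a, up to 0.0775, for Lox without bleomycin b, saline a or saline b, up to 0.183, for Bmp1 without bleomycin b or saline a, up to 0.0734, for Crtap without bleomycin b or saline a, up to 0.115 and for P4hb without bleomycin b, saline a or saline b, up to 0.163.

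Tnc encodes tenascin C, a matrix glycoprotein of wounds. It read 697 and 1594 after bleomycin and 222 and 299.5 after saline, with bleomycin array b highest and both saline arrays below both bleomycin arrays. It changed by 1.72 ± 0.28 (adjusted p = 0.00151), remained called under every array left out, and a further probe set of it changed by 1.36 (adjusted p = 0.0142). Ltbp2, which binds elastic fibres, read 1483 and 1696 against 741 and 763 (0.99 ± 0.17, adjusted p = 0.00184) and was likewise stable. Of 23 glycoproteins and proteoglycans 2 rose, Tnc and the fibril-binding Lum (0.76), and 2 fell, against 8.62% risen and 4.59% fallen over all genes. The fallen ones were Fn1 (fibronectin), which read 969 and 249 against 1455 and 1672, and Bgn (biglycan), one of the brightest, which read 5696 and 2331 against 11530.4 and 11000.1. For both it was bleomycin array b that lay far below array a, and without that array the adjusted p were 0.29 and 0.245. Calls were lost without bleomycin b, saline a or saline b for Lum, Fn1 and Bgn, with adjusted p up to 0.364, 0.29 and 0.245.

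Of 13 metalloproteases and inhibitors 3 rose and 0 fell, against 8.62% and 4.59% over all genes. Mmp12, the elastase of macrophages, read 5586 and 4423 after bleomycin and 1888 and 1399 after saline and changed by 1.56 ± 0.40 (adjusted p = 0.0174). A further probe set of Mmp12 read 1341 and 1816 against 116 and 214, a change of 2.71 (adjusted p = 5.52e-04). Neither showed overlap of the groups. Mmp3 (stromelysin) read 882 and 1453 against 257 and 286 and Adam8, a protease on leukocytes, 275 and 820.0 against 31.5 and 61.3, with changes of 1.75 ± 0.43 (adjusted p = 0.0142) and 2.07 ± 0.62 (adjusted p = 0.0346). Neither was called against saline 24 h (adjusted p = 0.352 and 0.895), whose arrays a and b read 265 and 1496 for Mmp3 and 228 and 705 for Adam8. The calls were lost without single arrays (for Mmp12 without any of the 4, up to 0.132, for Mmp3 without bleomycin b, saline a or saline b, up to 0.163, for Adam8 without bleomycin b, saline a or saline b, up to 0.327, as adjusted p).

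Several genes that define a fibrotic matrix were not called. Col1a1 read 6556 and 3617 after bleomycin and 2668 and 3090.3 after saline, a difference of 0.74 ± 0.29 (adjusted p = 0.0923). Col3a1 differed by 0.38 ± 0.25 (adjusted p = 0.337) on its brightest probe set, while another of its probe sets was higher by 1.38 (adjusted p = 0.00422). Acta2, the actin of smooth muscle and myofibroblasts, differed by 0.64 ± 0.28 (adjusted p = 0.146) and Timp1, an inhibitor of metalloproteases, by 0.03 ± 0.44 (adjusted p = 0.973). The calls on collagen V were also split by probe set: Col5a1 differed by 0.33 (adjusted p = 0.218) on one and by 1.12 (adjusted p = 9.26e-04) on another. Against saline 24 h a further probe set of Col1a1 was higher by 1.06 (adjusted p = 0.0215), where it differed by 0.45 against saline 14 d (adjusted p = 0.247). The further probe sets of Col3a1 were higher against saline 24 h by 1.75 and 0.99 (adjusted p = 0.00199 and 0.0109). Against that control Acta2 differed by 0.03 (adjusted p = 0.969) and Timp1 by -0.64. Spp1 and Retnla had no probe set here.

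Of 23 genes of TGF-beta signalling and its relatives 4 rose and 2 fell, against 8.62% and 4.59% over all genes. Against both saline groups 1 rose and 1 fell. Tgfb1, the main fibrogenic ligand, read 1293 and 1431 after bleomycin and 444 and 579 after saline, and Inhbb, a subunit of activin B, 386 and 496 against 129 and 234. Among the receptors, Bmpr2 read 359 and 265 against 710.2 and 747 and the co-receptor Tgfbr3 389 and 274 against 646 and 739, lower on both bleomycin arrays. The target gene Ccn2 (connective tissue growth factor) read 4689.9 and 5549.5 against 2678 and 2867. The changes were 1.28 ± 0.32 for Tgfb1, 0.98 ± 0.28 for Inhbb, -1.03 ± 0.17 for Bmpr2, -0.90 ± 0.19 for Tgfbr3 and 0.86 ± 0.19 for Ccn2, with adjusted p of 0.0161, 0.0299, 0.0013, 0.00671 and 0.00862. Smad1, which carries the signal of BMP receptors, rose by 0.74 (adjusted p = 0.00965), while a further probe set of it differed by 0.44 (adjusted p = 0.082). Only Bmpr2 among these 6 stayed called under each array left out; for the others calls were lost without single arrays, with adjusted p for Tgfb1 without bleomycin b, saline a or saline b, up to 0.129, for Inhbb without bleomycin b or saline a, up to 0.261, for Tgfbr3 without bleomycin b or saline b, up to 0.104, for Ccn2 without bleomycin b or saline a, up to 0.0996 and for Smad1 without bleomycin b, saline a or saline b, up to 0.08.

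**Figure D2:**
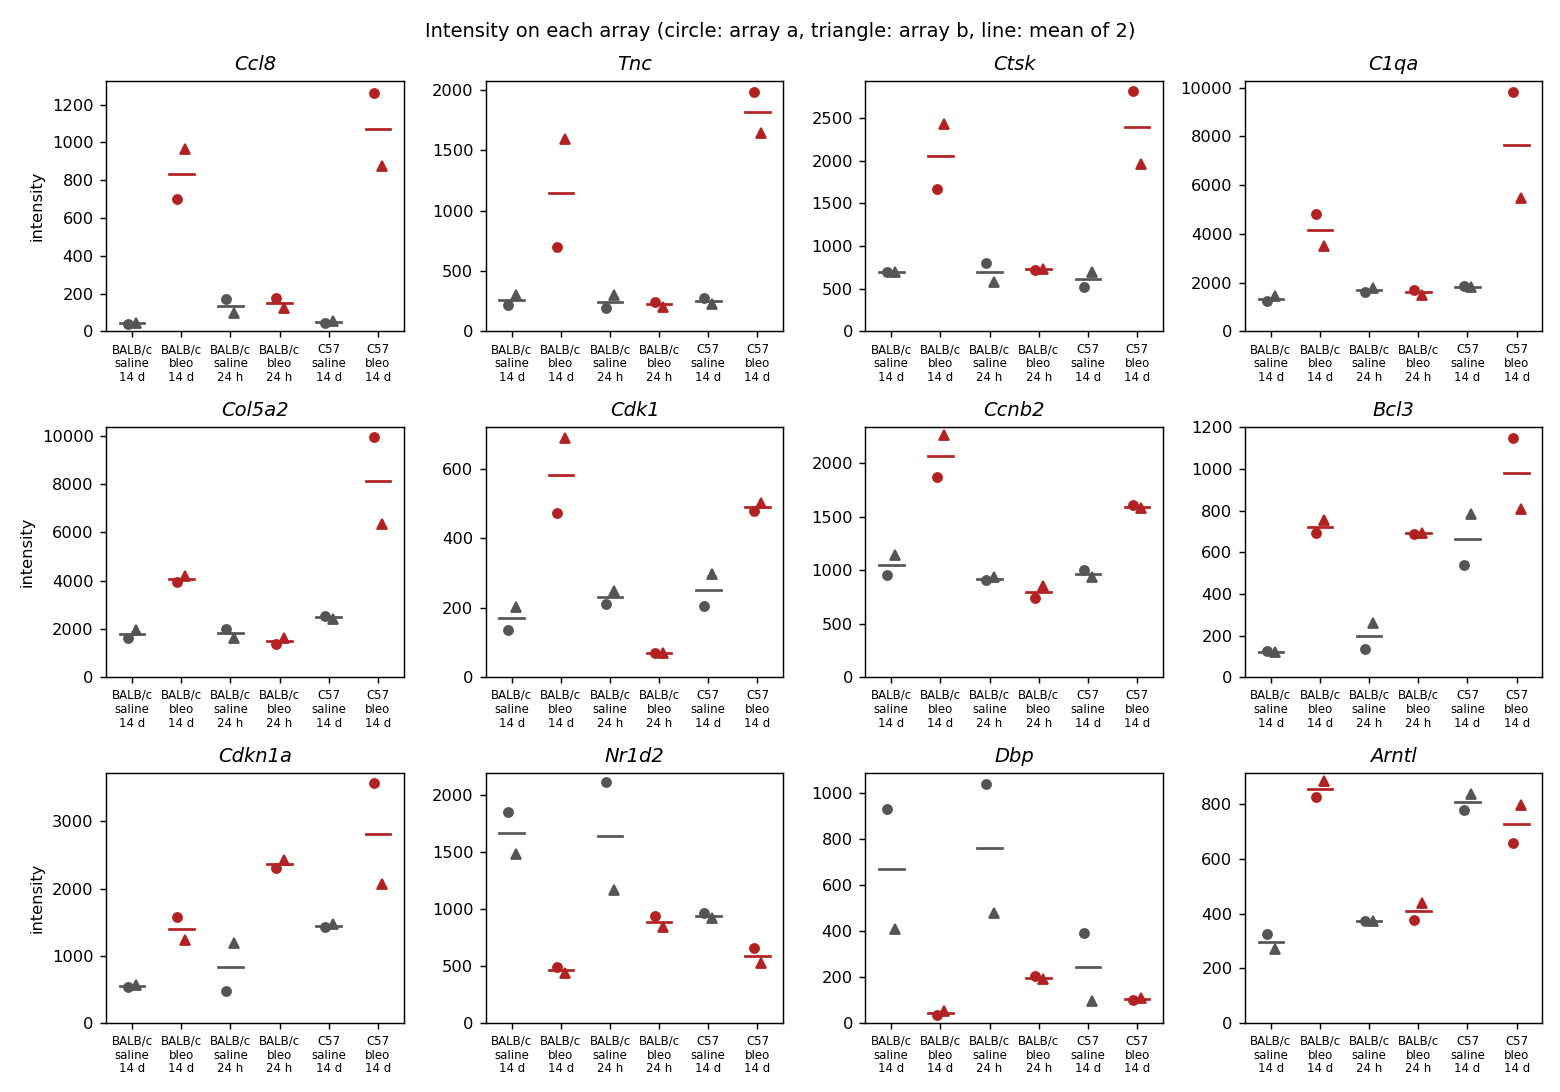
Intensity (y axes, linear scale) of 12 genes on each array of 6 groups of 2 arrays: bleomycin and saline of BALB/c at 24 h and 14 d and of C57BL/6J at 14 d. In BALB/c at 14 d both bleomycin arrays lie above both saline arrays for Ccl8, Tnc, Ctsk, C1qa, Col5a2, Cdk1, Ccnb2, Bcl3, Cdkn1a and Arntl and below them for Nr1d2 and Dbp.

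Genes of monocytes, macrophages and complement rose in part. Of 13 monocyte chemokines and receptors 3 rose and 0 fell (median 0.59), and of 28 macrophage markers and Fc receptors 8 rose and 3 fell (median 0.58). Of 14 complement genes 5 rose and 0 fell (median 0.33). Also called against saline 24 h were 1 of the 3 risen chemokine genes, 4 of the 8 macrophage genes and all 5 complement genes. The shares that rose stand against 8.62% over all genes, and those higher against both saline groups against 2.01%. The sum of macrophage markers given above moved with these genes, and its part in their rise was not tested.

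Ccl8, a chemokine that draws monocytes and type 2 T cells, read 698 and 967 after bleomycin and 41.8 and 46.7 after saline. Every bleomycin array was far above every saline array, and the change was 2.75 ± 0.27 (adjusted p = 5.51e-05), called whichever array was left out. The related Ccl2 read 369 and 618 against 41.7 and 15.3 (2.26 ± 0.72, adjusted p = 0.0464) and Ccl12 291 and 216 against 99.4 and 37.5 (1.12 ± 0.36, adjusted p = 0.0482). Both calls were lost without any 1 of the 4 arrays, with adjusted p up to 0.269 and 0.294. Neither Ccl2 nor Ccl12 was called against saline 24 h (adjusted p = 0.689 and 0.388). Arrays a and b of that control read 97.4 and 692 for Ccl2 and 114 and 175 for Ccl12. Ccl7 differed by 1.17 ± 0.44 (adjusted p = 0.0875). Of 10 CXC chemokines and their receptors, ligands of neutrophils and lymphocytes, 0 were called.

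The 3 chains of C1q, made largely by macrophages, all rose on the probe set used for each gene. C1qa read 4823 and 3515 after bleomycin against 1243 and 1455 after saline, C1qb 1582 and 2069 against 577 and 713, and C1qc 3098 and 2999 against 1197 and 1565. On these no bleomycin array overlapped a saline array. The changes were 1.55 ± 0.26 (adjusted p = 0.0018), 1.37 ± 0.33 (adjusted p = 0.0129) and 1.10 ± 0.26 (adjusted p = 0.0128). A further probe set of C1qb read 701 and 413 against 641 and 746, with overlap, and differed by -0.31 (adjusted p = 0.442). The receptor of the C3a fragment, C3ar1, read 722 and 1778 against 314 and 263 and changed by 1.70 ± 0.35 (adjusted p = 0.00541), and Cfp, properdin of the alternative pathway, rose by 1.04 (adjusted p = 0.019). C1qa stayed called under each array left out, while the others were lost without single arrays, with adjusted p for C1qb without bleomycin b, saline a or saline b, up to 0.136, for C1qc without bleomycin b or saline a, up to 0.123, for C3ar1 without bleomycin b or saline b, up to 0.11 and for Cfp without bleomycin b, saline a or saline b, up to 0.213.

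Ctsk, a lysosomal protease that degrades collagen, read 1675 and 2433 after bleomycin and 697 and 702 after saline. Both bleomycin arrays lay well above the saline pair, by 1.42 ± 0.24 (adjusted p = 0.00178), under each array left out. Cd68, a lysosomal protein of macrophages, read 2090.0 and 2265 against 1090.1 and 1103 and rose by 0.93 (adjusted p = 0.0325). Csf1r, the receptor on which macrophages depend, rose by 0.76 (adjusted p = 0.035; -0.27 and 0.465 on a further probe set), the integrin chains Itgb2 and Itgax by 1.02 and 0.84 (adjusted p = 0.00636 and 0.00579), the adaptor Tyrobp by 0.92 (adjusted p = 0.0372) and Lgals3 (galectin 3) by 0.93 (adjusted p = 0.00884). The last 6 genes lost their calls without single arrays, with adjusted p for Cd68 without any of the 4, up to 0.189, for Csf1r without bleomycin b, saline a or saline b, up to 0.273, for Itgb2 without bleomycin b or saline a, up to 0.0722, for Itgax without saline b, up to 0.0603, for Tyrobp without bleomycin b, saline a or saline b, up to 0.304 and for Lgals3 without bleomycin b or saline a, up to 0.105. Csf2rb, the shared chain of the GM-CSF receptor, rose by 1.41 (adjusted p = 0.0457) but was lost without any 1 of the 4 arrays (up to 0.186) and differed by -0.50 against saline 24 h. The 3 markers that fell were Apoe, which read 3400.5 and 383 against 6067 and 6196, Plin2, 2128 and 802 against 3153 and 3565, and Lyz2, one of the brightest; bleomycin array b was the lowest for Apoe and Plin2, which were lost without bleomycin b, saline a or saline b, with adjusted p up to 0.309 and 0.389.

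Other lysosomal genes rose alongside, chosen after their values were seen. Pld3 read 2818 and 2935 after bleomycin against 1053 and 1007 after saline, and Glb1, lysosomal beta-galactosidase, 948 and 1131 against 456 and 498. Both pairs of arrays were tight and apart, with changes of 1.40 ± 0.19 (adjusted p = 5.52e-04) and 0.99 ± 0.16 (adjusted p = 0.00123), and both stayed called under each array left out. A further probe set of Glb1 differed by 0.44 (adjusted p = 0.157). Ctsa, the protein that protects that galactosidase, rose by 1.07 ± 0.17 (adjusted p = 0.00107). In the list of 19 cathepsins and lysosomal genes 3 rose and 3 fell, against 8.62% and 4.59% over all genes. Ctsd, an aspartic protease, fell, reading 463 and 190.2 after bleomycin against 4241 and 4950.0 after saline (-3.56 ± 0.56, adjusted p = 0.00111), as did Npc2, a carrier of cholesterol (-1.53, adjusted p = 0.0141, and 0.238 without bleomycin array b). The sixth, Lamp1, was among the brightest.

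Cytokine and interferon genes rose in part. Of 30 genes of cytokines and NF-kappaB feedback 5 rose and 0 fell (median 0.51), against 8.62% risen over all genes. Of the 5, 2 were also called against saline 24 h. Bcl3, a nuclear partner of NF-kappaB, read 691 and 757 after bleomycin and 126 and 119.8 after saline, a gap far wider than that between the arrays of either pair, and changed by 1.92 ± 0.32 (adjusted p = 0.0017). Vcam1, an adhesion molecule for leukocytes, rose by 0.81 (adjusted p = 0.00954), lost without the bleomycin b array (adjusted p = 0.138), the saline a array (0.0672) or the saline b array (0.0603). Of its further probe sets one was also higher, by 0.73 (adjusted p = 0.0389), and the other differed by -0.43 (adjusted p = 0.161). Socs3, which damps cytokine signals, rose by 1.10 (adjusted p = 0.039) and by 2.53 (adjusted p = 0.00431) on a further probe set. The first call was lost without any 1 of the 4 arrays and the second without bleomycin b or saline a. Against saline 24 h the further probe set differed by 0.53 (adjusted p = 0.57), and arrays a and b of that control read 347 and 1065 on it. Of 29 interferon genes 5 rose and 0 fell, with a median of 0.08 close to that of all genes. Only 1 of the 5 was also called against saline 24 h. Irf7, the master factor of the type I interferon response, read 674 and 549.8 against 164 and 236 (1.27 ± 0.22, adjusted p = 0.00184), but a further probe set of it read 495 and 434 against 459.8 and 384 and differed by 0.12 (adjusted p = 0.727). Irf7 and Bcl3 kept their calls under each array left out, but Irf7 was not called against saline 24 h (adjusted p = 0.0945).

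**Figure D3:**
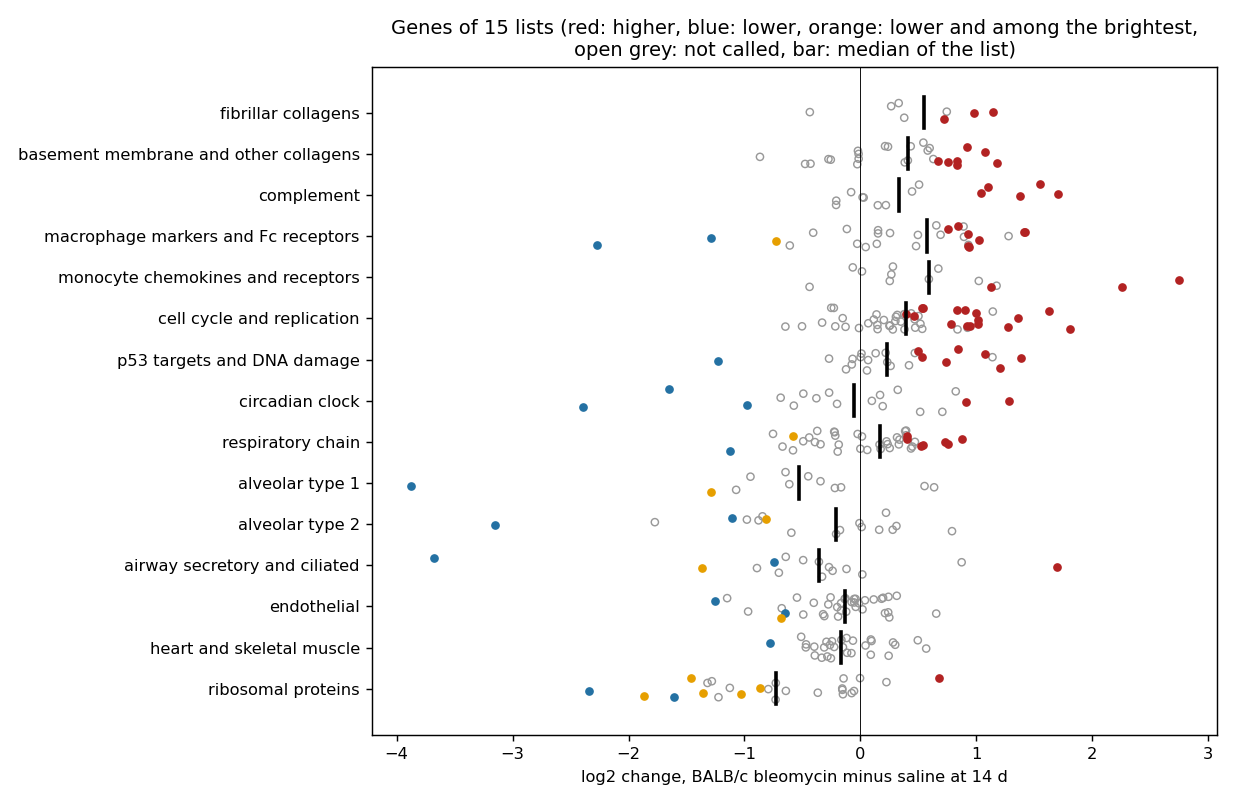
Change of each tested gene (points, x axis, log2, bleomycin minus saline at 14 d in BALB/c) in 15 gene lists, with the median of each list. Monocyte chemokines, macrophage markers and fibrillar collagens have medians of 0.59, 0.58 and 0.55, while alveolar type 1 genes have a median of -0.53 and ribosomal proteins of -0.73.

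Genes of cell division rose in 16 of 49 cases and fell in 0, with a median change of 0.39, and 8 of the 16 were also called against saline 24 h. Over all genes 8.62% rose and 4.59% fell. Cdk1, the kinase that drives entry into mitosis, and Ccnb2, a B cyclin that activates it, stayed called under each array left out. The promoters of mitotic genes often carry CCAAT boxes, bound by NF-Y, and a CHR element (TTTGAA), bound by the DREAM complex and B-MYB. The 100 bases before the start of 5 of the called genes are shown 5′ to 3′ on the gene's strand, from RefSeq on GRCm38.p6, with CCAAT or ATTGG and TTTGAA or TTCAAA in capitals, because these genes rose together. All 5 lie on the minus strand.
Cdk1, chr10:69352913-69353012: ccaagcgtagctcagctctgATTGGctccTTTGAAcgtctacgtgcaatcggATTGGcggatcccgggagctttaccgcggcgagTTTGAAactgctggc
Ccnb2, chr9:70421555-70421654: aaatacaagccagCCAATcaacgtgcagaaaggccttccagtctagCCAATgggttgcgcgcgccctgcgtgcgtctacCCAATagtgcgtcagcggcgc
Top2a, chr11:99024190-99024289: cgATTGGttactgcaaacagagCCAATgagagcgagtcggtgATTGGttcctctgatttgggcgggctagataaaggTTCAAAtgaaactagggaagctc
Cdc20, chr4:118437344-118437443: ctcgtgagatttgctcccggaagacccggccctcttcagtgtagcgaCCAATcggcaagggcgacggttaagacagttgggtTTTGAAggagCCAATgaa
Kif22, chr7:127042421-127042520: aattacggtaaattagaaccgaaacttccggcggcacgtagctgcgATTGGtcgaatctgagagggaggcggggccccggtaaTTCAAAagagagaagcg
Of the 16 genes called, 13 had a promoter in the table. In the 250 bases before the start, on both strands, CCAAT was found in 11 of them (84.6%), TTTGAA in 8 (61.5%) and both in 8 (61.5%). Among the 27 matched cell cycle genes that were not called the shares were 66.7%, 29.6% and 22.2%, and among the promoters of 5178 tested genes 40.2%, 13.3% and 4.98%. Of all 27025 promoters 37.5%, 18.3% and 6.45% held them. A match says only that the letters are there.

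Cdk1 read 473 and 690.0 after bleomycin and 136 and 203 after saline, and Ccnb2 1867 and 2263 against 959 and 1139. In both genes the lower bleomycin array exceeded the higher saline array, with changes of 1.36 ± 0.21 (adjusted p = 0.00107) and 0.92 ± 0.15 (adjusted p = 0.00123). Top2a, the topoisomerase that untangles chromosomes, read 196 and 480.1 against 32.2 and 47.5 (1.62 ± 0.32, adjusted p = 0.00413). It was low on all saline arrays and was lost without the bleomycin b array (adjusted p = 0.0891). Mad2l1, a spindle checkpoint protein, read 622 and 885 against 361 and 295 (1.0 ± 0.18, adjusted p = 0.00278), lost without the bleomycin b array (adjusted p = 0.0576). Kif22, Birc5, Ect2 and Cdc20, which act in chromosome movement, cytokinesis and exit from mitosis, rose by 1.02, 0.95, 0.90 and 0.78 (adjusted p = 0.00568, 0.00964, 0.013 and 0.0119), each also called against saline 24 h. Calls were lost for Kif22 without bleomycin b or saline a, up to 0.103, for Birc5 without bleomycin b or saline a, up to 0.147, for Ect2 without bleomycin b, saline a or saline b, up to 0.146 and for Cdc20 without bleomycin b, saline a or saline b, up to 0.117, as adjusted p. Aurkb and Foxm1, a mitotic kinase and a transcription factor of mitotic genes, rose by 1.81 and 1.27 against saline 14 d but missed the threshold against saline 24 h (adjusted p = 0.0639 and 0.0547), and were lost for Aurkb without bleomycin b, saline a or saline b, up to 0.0902 and for Foxm1 without bleomycin b or saline b, up to 0.14.

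Targets of p53, the factor that answers DNA damage, rose in 7 of 23 cases and fell in 1 (median 0.23), against 8.62% and 4.59% over all genes (median 0.06). Of the 7, 2 were also called against saline 24 h, and the 1 that fell was as well. Cdkn1a, which encodes the cell cycle inhibitor p21, read 1576 and 1231 after bleomycin and 542 and 566 after saline and changed by 1.20 ± 0.27 (adjusted p = 0.01). The groups did not overlap, but the call was lost without the saline a array (adjusted p = 0.0727) or the saline b array (0.0583), and one saline array of 24 h read as high (482 and 1194 on a and b). A further probe set of it differed by 0.73 (adjusted p = 0.122). Ccng1 (cyclin G1) read 1552 and 2509.9 against 1227 and 1076 and Zmat3 1385 and 1389 against 837 and 1040.5; both were also called against saline 24 h, with changes of 0.74 and 0.53 against saline 14 d (adjusted p = 0.0292 and 0.0462). The call was lost for Ccng1 without bleomycin b, saline a or saline b, up to 0.371 and for Zmat3 without any of the 4, up to 0.31, as adjusted p. Btg2, an antiproliferative p53 target, fell, with 1501 and 1497 against 4078 and 3245 (-1.23 ± 0.34, adjusted p = 0.0245), lost without any 1 of the 4 arrays (up to 0.17). Blmh, the hydrolase of bleomycin, read 1515 and 1576 against 2311 and 2006, lower on both bleomycin arrays, and differed by -0.46 ± 0.15 (adjusted p = 0.0577), and by 0.37 (adjusted p = 0.493) on a further probe set.

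Genes of the circadian clock moved in both directions: 2 of 18 rose and 3 fell, against 8.62% and 4.59% over all genes. In the clock, ARNTL (BMAL1) drives Nr1d1, Nr1d2 and Dbp, and the NR1D proteins (REV-ERB) repress Arntl. Arntl read 827 and 885 after bleomycin and 326 and 271 after saline (1.28 ± 0.18, adjusted p = 5.65e-04). Nr1d2 read 491 and 443 against 1854 and 1487 (-1.65 ± 0.21, adjusted p = 2.78e-04). Dbp, an output factor, read 36.6 and 52.9 against 929.7 and 408 (-2.39 ± 0.41, adjusted p = 0.00176). All 3 kept their calls under each array left out and against saline 24 h. Nr1d1 fell by 0.98 (adjusted p = 0.017), lost without the bleomycin b array (adjusted p = 0.198), the saline a array (0.114) or the saline b array (0.0755). Csnk1e, a kinase of the PER proteins, rose by 0.91 (adjusted p = 0.00243), lost without the saline a array (adjusted p = 0.0522), and differed by 0.17 against saline 24 h. The hour at which lungs were taken is not stated, so time of day and treatment cannot be told apart.

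In the alveolar and airway epithelium the genes called were mostly lower. Of 17 alveolar type 2 genes 0 rose and 3 fell (median -0.21), of 12 alveolar type 1 genes 0 rose and 2 fell (median -0.53), and of 15 airway genes 1 rose (Ltf, lactoferrin) and 3 fell (median -0.36). Over all genes 4.59% fell, and 3.87% of those outside the brightest. In each of these lists 1 of the falls was among the brightest, as were 3, 2 and 3 of the genes tested. Ager, a receptor of alveolar type 1 cells, read 538 and 224 after bleomycin and 6765 and 6178 after saline (-3.88 ± 0.84, adjusted p = 0.00748), lost without the bleomycin b array (adjusted p = 0.0943) or the saline a array (0.0585). Scgb1a1, the secretoglobin of club cells, read 194 and 129 against 2476 and 3922 (-3.68 ± 0.85, adjusted p = 0.0106), lost without the bleomycin b array (adjusted p = 0.0943), the saline a array (0.0518) or the saline b array (0.0876). Sftpb, surfactant protein B, read 842 and 177 against 5243 and 3645 (-3.15 ± 0.81, adjusted p = 0.0175), lost without the bleomycin b array (adjusted p = 0.216), the saline a array (0.121) or the saline b array (0.0702). All 3 were low on both bleomycin arrays, but each also differed by over 2 on the log2 scale between the arrays of some other group.

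Emp2, a membrane protein of alveolar type 1 cells among the brightest, read 3460.0 and 2416 after bleomycin and 7252 and 7177 after saline (-1.29 ± 0.22, adjusted p = 0.00194) and stayed called under each array left out. Muc1, an epithelial mucin, read 5024 and 1723 against 6652 and 6323; bleomycin array b carried that difference of -1.11, with an adjusted p of 0.0245 and of 0.389 without it. Cyp2b10, a cytochrome P450 of club cells, fell by 0.75 (adjusted p = 0.0355), lost without bleomycin b, saline a or saline b, up to 0.263. Of 22 genes of injured epithelium 5 rose and 2 fell, 1 of the 2 among the brightest, against 8.62% and 4.59% over all genes. Also called against saline 24 h were 0 of the 5 and 1 of the 2. Itgb4, the integrin of hemidesmosomes, read 392 and 656 against 80.9 and 63.7 (1.88 ± 0.23, adjusted p = 2.50e-04), stable to each array left out, but the saline arrays of 24 h read 454 and 320.0 and against them the difference was 0.34 (adjusted p = 0.404). Cldn3, a claudin of tight junctions, and Sfn, the 14-3-3 protein sigma, rose by 0.73 and 1.14 (adjusted p = 0.00862 and 0.019). Both calls were lost without bleomycin b, saline a or saline b. A further probe set of Cldn3 differed by 0.46 (adjusted p = 0.176).

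Of 37 endothelial genes 0 rose and 3 fell, 1 of the 3 among the brightest, against 8.62% and 4.59% over all genes. Ednrb, the endothelin B receptor, read 162 and 95.3 after bleomycin and 379.6 and 484 after saline (-1.26 ± 0.25, adjusted p = 0.00477), lower on both bleomycin arrays, and was lost without the bleomycin b array (adjusted p = 0.0782) or the saline b array (0.0583). Ltf, lactoferrin of neutrophils and airway glands, was the 1 of 20 neutrophil and acute phase genes that rose, from 529 and 967 to 1982 and 3254 (1.70 ± 0.38, adjusted p = 0.00862), lost without the bleomycin b array (adjusted p = 0.124) or the saline a array (0.11). Saa3 and Lcn2, acute phase genes, were higher by 2.99 ± 1.23 (adjusted p = 0.115) and 1.73 ± 0.87 (adjusted p = 0.199) without passing. Of 22 genes of B and plasma cells 2 rose (Cd72 and Blnk), of 19 of T and NK cells 1 (Thy1) and of 14 of type 2 activation 2 (Clca3a1 and Il13ra1), beside the same 8.62% over all genes, and none of these was called against saline 24 h (0 in each list). Arg1 differed by 0.55 ± 0.40 (adjusted p = 0.393) and Chil3 by 0.78 ± 0.26 (adjusted p = 0.0591). Among 24 genes of cholesterol and fatty acid synthesis 4 rose, Mvd most (1.12, adjusted p = 0.00627, lost without bleomycin b or saline b). Of the 4, 2 were also called against saline 24 h. Among 40 of the respiratory chain 7 rose and 2 fell, of which 0 and 1 were also called against saline 24 h. Of the 2 that fell, 1 was among the brightest.

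The genes that rose most included, beside those above, Cpxm1, Nup188, Kng1, Glipr2, Mast2, Phlda1, Uhrf1 and Lsm2, which were called under each array left out. Cpxm1, a secreted protein of the carboxypeptidase family, read 526 and 913 after bleomycin and 79.8 and 138 after saline (1.99 ± 0.33, adjusted p = 0.00161). Phlda1 read 2337 and 3511 against 667 and 781 (1.86 ± 0.23, adjusted p = 2.50e-04). Nup188, a protein of the nuclear pore, read 410.1 and 417 against 58.5 and 49.4 (1.79 ± 0.27, adjusted p = 8.77e-04). These 3 and Kng1 (kininogen, 1.93) were also called against saline 24 h. Uhrf1, which copies DNA methylation at replication, Glipr2, the kinase Mast2 and the RNA-binding Lsm2 rose by 1.91, 2.40, 2.06 and 1.83 against saline 14 d and were not called against saline 24 h (adjusted p = 0.25, 0.153, 0.109 and 0.141). Further genes, chosen after their values were seen, were called under each array left out and against saline 24 h: Lgals3bp, a ligand of galectin 3, read 2765 and 3354 against 1204 and 1327 (1.21 ± 0.16, adjusted p = 3.70e-04), and Ccdc80, a matrix protein, 422 and 695 against 141 and 146 (1.43 ± 0.20, adjusted p = 5.65e-04).

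The genes that fell most outside the brightest were led by Rnf10, Sct, Eln and Ager. Sct (secretin) read 188 and 205 after bleomycin and 4422 and 5329.7 after saline (-4.10 ± 0.48, adjusted p = 2.50e-04), but a further probe set of Sct read 1426 and 965 against 1616 and 1331 and differed by -0.30 (adjusted p = 0.529). Eln (elastin) read 457 and 192 against 6087 and 7117 on one probe set (-4.08 ± 0.44, adjusted p = 1.21e-04) and 2534 and 2949 against 333 and 516 on another, where it was higher by 2.48 (adjusted p = 6.53e-04). The direction of elastin RNA is therefore not settled by these arrays. Tbc1d10a fell by 2.30 on one probe set and differed by -0.01 (adjusted p = 0.984) on another. Rnf10, a ring finger protein, read 238 and 99.2 against 5834 and 4822 (-4.43 ± 0.69, adjusted p = 0.00107), and the MHC class I genes H2-K2 and H2-Bl fell by 3.66 and 2.27 on probe sets that can match several related transcripts.

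**Figure D4:**
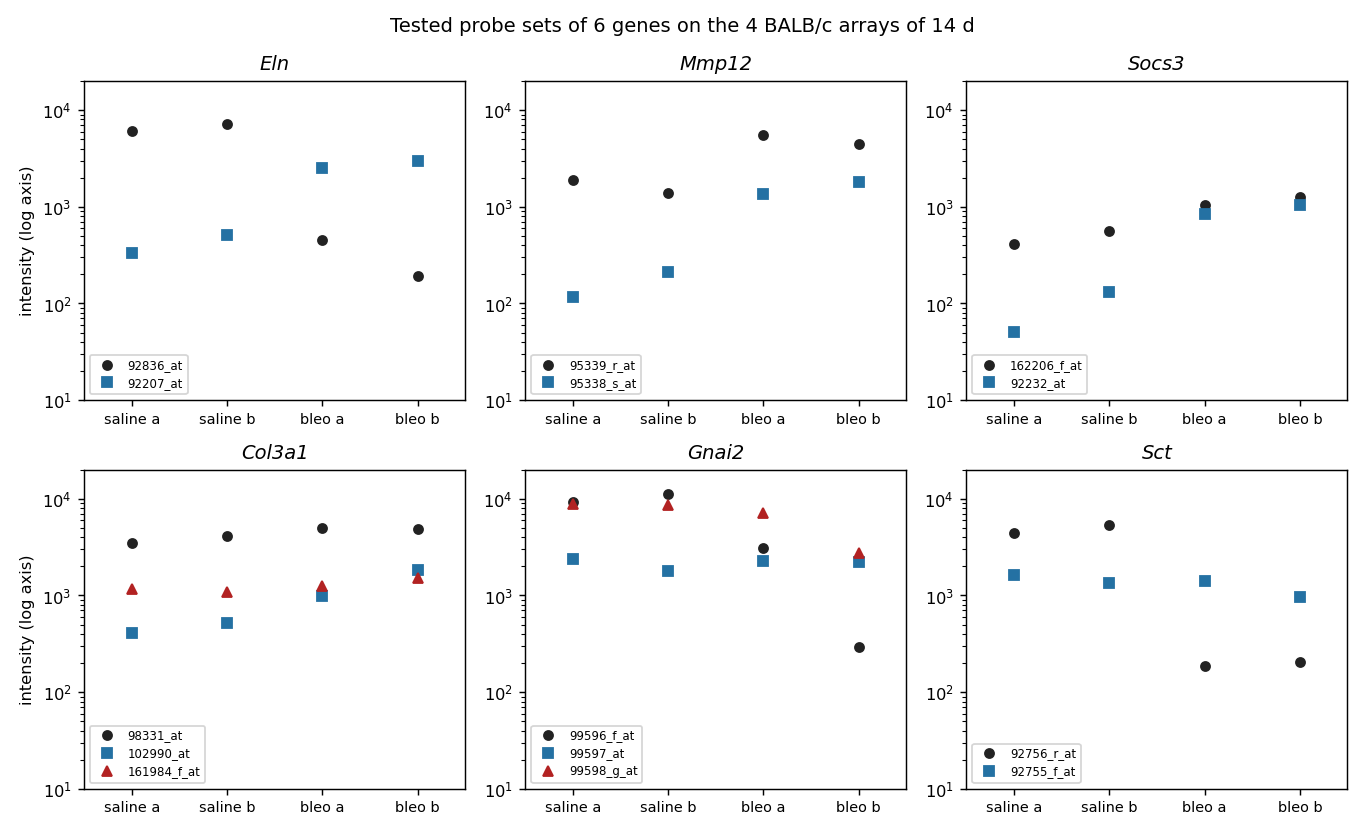
Intensity (y axes, log scale) on the bleomycin and saline arrays of BALB/c at 14 d for the probe sets of Eln, Mmp12, Socs3, Col3a1, Gnai2 and Sct. The probe sets of Mmp12, Socs3 and Col3a1 lie higher after bleomycin, those of Eln move in opposite directions, and 1 probe set each of Gnai2 and Sct was called lower, while the others differ by 0.10 and -0.95 for Gnai2 and by -0.30 for Sct.

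Further probe sets of the called genes pointed the same way in part. Of the 557 genes that rose, 96 had 113 further tested probe sets, of which 75 pointed the same way, 18 were called the same way and 3 the opposite way. Of the 245 that fell outside the brightest, 58 had 69 further probe sets, of which 36 pointed the same way, 2 were called so and 2 the opposite way. Probe sets of relaxed design made up 61 of the lower calls outside the brightest, of 439 tested, and 9 of the higher ones. Whether falls and rises differ in this was not tested.

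Relative to the saline mean, the brightest probe sets were lower by a median of 0.43 on bleomycin array a and of 1.18 on array b. On array b a lower reading follows from how they were chosen. Of the 127 genes among them 52 were called lower (40.9%). They included genes of unlike function: Cd74, the invariant chain of MHC class II, Tpt1, the G protein subunits Gnai2 and Gnas, Rac1, and ribosomal proteins. Tpt1 read 4631 and 355 after bleomycin and 12706 and 12043 after saline, and Cd74 5623 and 636 against 8981 and 9389. Bleomycin array b was several fold below array a for both, and without it the adjusted p were 0.155 and 0.382. Gnai2 changed by -3.22 on 1 bright probe set, while it differed by -0.95 (adjusted p = 0.119) on another bright one and by 0.10 (adjusted p = 0.802) on one below the bright end. Rps28 read 3242 and 1400.5 against 8003 and 8064 (-1.87 ± 0.30, adjusted p = 0.00123) and, like Emp2, was called under each array left out and against both saline groups. Further probe sets of Rps28 differed by -2.02 and 0.19 and were not called (adjusted p = 0.214 and 0.661). Of 25 ribosomal protein genes 7 fell, 5 of them among the brightest, and 1 rose (Rpl13a, 0.68), against 4.59% fallen and 8.62% risen over all genes.

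The effect in BALB/c was set against that in C57BL/6J at the same day, as a difference of the 2 strains' changes. It was higher in BALB/c for 425 probe sets (4.88%) and lower for 222 (2.55%), or 359 genes (5.55%) and 144 genes (2.23%). In C57BL/6J itself 202 genes were higher after bleomycin (3.12%) and 298 lower (4.61%). The C57BL/6J arrays had limits too, since the highest intensity was 19576 on one bleomycin array and 9682 on one saline array. Arg1, arginase 1 of macrophages, read 4652 and 2903 after bleomycin and 88.4 and 110.3 after saline in C57BL/6J, a change of 4.30 ± 0.40 (adjusted p = 1.89e-05). In BALB/c it read 157 and 333 against 90.1 and 181, and the strain difference was -3.76 ± 0.57 (adjusted p = 0.00244). Ccn2 rose in both strains, by 0.86 in BALB/c and 1.88 in C57BL/6J, with a difference of -1.02 ± 0.27 (adjusted p = 0.0328). Fst, follistatin, an inhibitor of activins, and Fbln2, a matrix fibulin, both chosen after their values were seen, read 1453 and 1072 and 2591 and 1739.6 after bleomycin in C57BL/6J against 108 and 22.1 and 429 and 536 after saline, and the strain differences were -2.46 (adjusted p = 0.00851) and -1.74 (adjusted p = 0.00315). The differences of Arg1, Fst and Fbln2 stayed called whichever of the 8 arrays was left out, but that of Ccn2 was lost without 6 of them (both BALB/c pairs, C57BL/6J bleomycin a or C57BL/6J saline a), with adjusted p up to 0.117.

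In the other direction, Arntl differed between strains by 1.42 ± 0.26 (adjusted p = 0.0057), with a change of -0.14 in C57BL/6J. Itgb4, Hdc (histidine decarboxylase, which makes histamine) and Irf9, a factor of the interferon response, differed by 1.95, 1.87 and 1.52 (adjusted p = 0.00399, 0.00315 and 0.00305), and Col14a1 by 1.16 (adjusted p = 0.0237). All of these but Col14a1 stayed called whichever of the 8 arrays was left out; Col14a1 was lost without BALB/c bleomycin b or saline a or without C57BL/6J bleomycin a, saline a or saline b, with adjusted p up to 0.0953. Scgb1a1, Sftpb and Ager, lower in BALB/c, were higher after bleomycin in C57BL/6J by 2.78, 2.59 and 1.82 without passing (adjusted p = 0.0542, 0.0593 and 0.209), and the strain differences passed (-6.46, -5.75 and -5.70, adjusted p = 0.00642, 0.00927 and 0.012). Without BALB/c bleomycin b those of Sftpb and Ager missed the threshold (adjusted p = 0.0506 and 0.0552). For Scgb1a1, Sftpb and Ager the C57BL/6J arrays lay far apart within each pair. Bleomycin arrays a and b read 16391 and 3855, 14028 and 1575, and 14225 and 1846. Saline arrays a and b read 3118 and 335, 1404 and 340, and 4056 and 443. The highest intensities were 19576 and 11477 on those bleomycin arrays and 14338 and 9682 on those saline arrays. The part of this in the differences was not tested. For many of the genes that rose in BALB/c no strain difference was detected. It was -0.29 ± 0.39 for Ccl8 (adjusted p = 0.689), -0.74 ± 0.40 for Tnc (adjusted p = 0.273), -0.40 ± 0.34 for Ctsk (adjusted p = 0.505) and -0.50 ± 0.33 for Col5a2 (adjusted p = 0.378), which does not show that the strains responded alike.

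**Figure D5:**
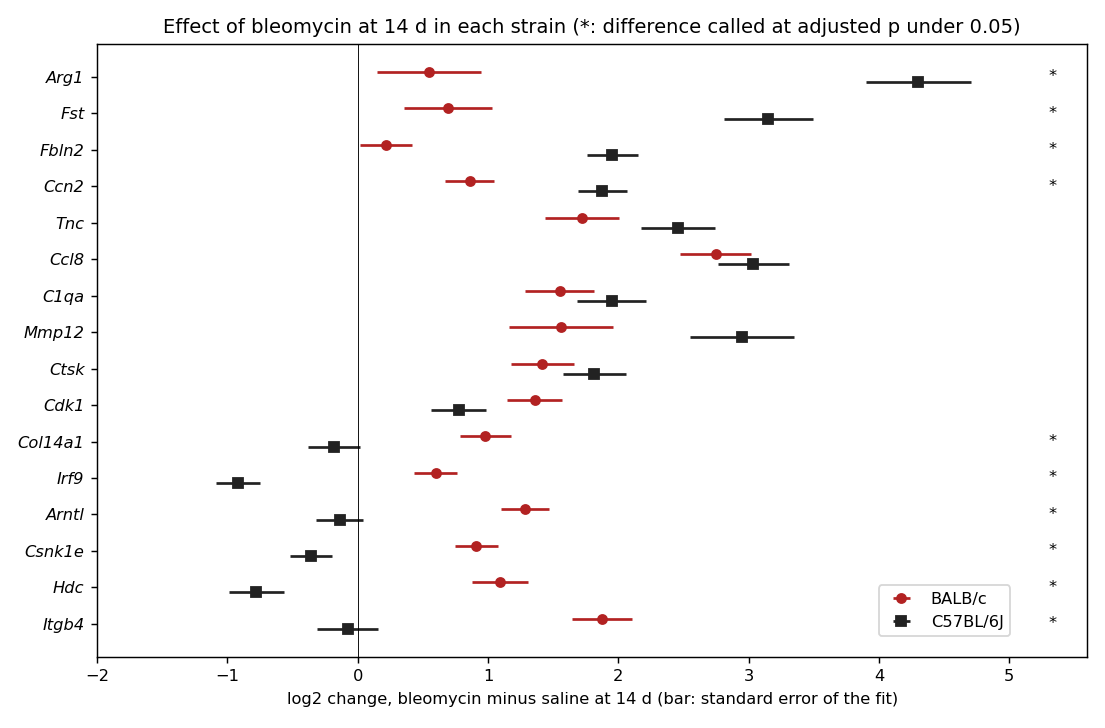
Change after bleomycin at 14 d (log2, bleomycin minus saline) in BALB/c and in C57BL/6J for 16 genes, with standard errors. Ccl8, Tnc and Ctsk are above 0 in both strains, Arg1 is at 0.55 in BALB/c and 4.30 in C57BL/6J, and Arntl at 1.28 and -0.14.

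At 24 h, the effect of bleomycin in BALB/c was called for 11 probe sets higher (0.126%) and 8 lower (0.0918%). The change at 14 d exceeded that at 24 h for 263 probe sets (3.02%) and fell short of it for 170 (1.95%), or 217 genes (3.36%) and 104 genes (1.61%). Ccl8 read 179 and 125 after bleomycin and 174 and 96.2 after saline at 24 h, and its change was larger at 14 d by 2.63 ± 0.39 (adjusted p = 0.00561). Cdk1 read 70.4 and 69.5 against 212 and 249 at 24 h and differed by -0.99 there without passing (adjusted p = 0.0595). Its difference between days was 2.35 ± 0.30 (adjusted p = 0.00177). Tnc, C1qa, Col5a2, Ctsk and Ccn2 also differed between days, by 1.80, 1.65, 1.41, 1.34 and 1.06 (adjusted p = 0.0225, 0.0242, 0.0266, 0.0343 and 0.034). Those of Ccl8 and Cdk1 stayed called whichever of the 8 arrays was left out. The other 5 were lost without 5 to 7 of the 8, BALB/c bleomycin 14 d b, both saline 14 d arrays and bleomycin 24 h b each among them, with adjusted p up to 0.105 for Tnc, 0.113 for C1qa, 0.102 for Col5a2, 0.157 for Ctsk and 0.137 for Ccn2. Cdkn1a was higher at both, by 1.52 at 24 h (adjusted p = 0.0298) and 1.20 at 14 d, with a difference of -0.31 ± 0.39 (adjusted p = 0.667).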

How the data were processed

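The deposited values were intensities on a linear scale, 1 per probe set and array, which from the values had been scaled by the authors to a trimmed mean near 799.9 on every array; the algorithm that combined the probes, the background correction and the scanner settings are not given in the sources used here. Of 12488 probe sets 66 control ones were left out, and of the 8710 tested 7812 had 1 gene name in the platform annotation, 293 several and 605 none. Groups came from the sample titles. Tests were made with limma 3.58.1 in R 4.3.3 on log2(intensity + 92), with a mean for each of 12 groups of 2 arrays, 12 residual degrees of freedom and a variance trend; 2 arrays a group limit the precision. In the label of 1 group of other arrays (BALB/c saline 24 h) the description names either treatment, and the title was followed.

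Members and gene lists were chosen with earlier results of these data known. Named genes were the 20 that rose and the 20 that fell most outside the brightest, the 10 largest falls among the brightest, up to 6 of smallest p in each of 43 lists, up to 15 for each difference between strains or days, and a set of genes known in lung injury. Named beyond that, after their values were seen, were Col15a1, Cd68, Csf1r, Tyrobp, Csf2rb, Birc5, Ect2, Cdc20, Zmat3, Pld3, Glb1, Lgals3bp, Ccdc80, Fst and Fbln2. Promoters were taken from RefSeq (GRCm38.p6), 250 bases before each start. Arrays that share a letter did not deviate together (r = 0.0063 over 8710 probe sets), so letters were not used as pairs. On simulated data for the 14 d comparison (8710 probe sets) the procedure recovered 2.99% of log2 changes of 0.5, 61.2% of 1 and 93.9% of 2, with 4 false calls. The simulation drew independent noise with 1 spread per probe set for all groups and no loss at the bright end. On the real arrays the bleomycin pair was wider than the saline pair (median absolute log2 difference 0.26 against 0.14), so these rates may not hold there. Alternatives changed the normalization, offset, filter, variance model, control and arrays.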

Additional observations from a re-analysis of the deposited data

Results flagged for a closer look

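The results here were picked out, among the named genes only, because the effect of bleomycin in BALB/c at 14 d differed, by a test of the difference itself in limma, from that in C57BL/6J at 14 d or from that in BALB/c at 24 h. The rules for naming genes are given with the processing above. The lists are therefore not complete, and the shares that stayed called do not describe all genes called. Differences are on the log2 scale.

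Between strains (BALB/c change minus C57BL/6J change), 359 genes were called above 0 and 144 below 0, so the balance of the named genes is not that of all called. Among the named genes, the differences below 0 were Scgb1a1 -6.46, Sct -6.18, Sftpb -5.75, Ptms -5.71, Ager -5.70, Ly6e -5.47, Rnf10 -4.84, App -4.42, H2-K2 -4.37, Lamp1 -4.31, Sprr1b -4.30, Tuba1c -4.20, Zfp94 -4.05, Ctsd -4.03, Gnai2 -3.83, Arg1 -3.76, Fst -2.46, Fbln2 -1.74 and Ccn2 -1.02. Those above 0 were Lsm2 2.04, Itgb4 1.95, Hdc 1.87, Phlda1 1.74, Ptp4a3 1.54, Irf9 1.52, Arntl 1.42, Csnk1e 1.27, Gsto1 1.18 and Col14a1 1.16. Of these 29 differences 19 stayed called whichever of the 8 arrays was left out. Further probe sets of Gnai2 gave -0.04 and -1.74 and one of Sct -0.90, and were not called (adjusted p = 0.956, 0.0672 and 0.183). Ager, Rnf10, Scgb1a1, Sftpb, Sprr1b, Ptms, Zfp94, App, Lamp1 and Ly6e also differed by over 2 on the log2 scale between the arrays of another group, and the part of this in the differences was not tested.

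Between days in BALB/c (14 d change minus 24 h change), 217 genes were called above 0 and 104 below 0. Among the named genes, the differences below 0 were Ctsd -3.76, Eln -3.63, Rnf10 -3.46, Rpl37a -3.26, Tbc1d10a -3.05, H2-K2 -2.93, Phf7 -2.76, Tomm34 -2.64, Sct -2.63 and H2-Bl -2.58. Those above 0 were Get4 2.94, Ccl8 2.63, Tec 2.50, Lsm2 2.46, Uhrf1 2.43, Cdk1 2.35, Tnc 1.80, C1qa 1.65, Col5a2 1.41, Ctsk 1.34 and Ccn2 1.06. Of these 21 differences 6 stayed called whichever of the 8 arrays was left out: those of Ccl8, Cdk1, Get4, H2-Bl, Lsm2 and Phf7. Further probe sets differed: that of Eln was called the opposite way, at 2.74 (adjusted p = 0.0117), and those of Tbc1d10a, Phf7 and Sct, at -0.23, -0.28 and -0.49, were not called (adjusted p = 0.597, 0.597 and 0.479), nor was that of Tnc, at 1.19 (adjusted p = 0.137).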

How the results depend on the processing

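The counts of BALB/c calls at 14 d moved most with single arrays: over the 4 leave-outs from 115 to 829 probe sets higher, from 80 to 482 lower outside the brightest and from 3 to 133 lower among the brightest. With the 4 arrays fitted alone they were 124, 106 and 5. Against the saline arrays of 24 h alone, an alternative chosen after seeing the data, they were 284, 189 and 31. Quantile normalization left 51 lower among the brightest, and setting the brightest above 0.5 times the lowest maximum, also chosen after seeing the data, gave 152. The strain difference was positive for 86 to 653 and negative for 50 to 387 probe sets over the arrays left out, positive for 208 with cyclic loess, and 90 and 60 with array weights. The difference between days was positive for 11 to 587 and negative for 7 to 524 over the arrays left out, and negative for 109 without a filter. The array letter as a replicate block gave 633 higher, 377 lower outside and 72 lower among the brightest, 374 and 194 for strains and 246 and 151 for days. It rests on a shared letter only, and 11 of the 188 called gene results of the 14 d comparison lost their call under it.

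Of the 188, 175 kept their call under quantile normalization, 165 under cyclic loess, 175 with values capped at the lowest maximum, 162 without a filter, 152 with saline 24 h and 14 d pooled, 79 with the 4 arrays alone and 53 without bleomycin b. With probe sets that were unsteady in other groups left out, a further alternative chosen after seeing the data, 173 of 174 kept theirs. Without the 4 saline arrays of 72 h, 169 of the 188 kept theirs. Signs turned for uncalled Timp1 (-0.00547 with quantile normalization, -0.30 with pooled saline, -0.64 against saline 24 h and from -0.22 to 0.28 over the arrays left out) and Igf1 (from -0.66 to 0.24 over the arrays left out, 0.16 against saline 24 h). Against saline 24 h they also turned for Gadd45g (-0.0345), Tec (-0.41), Fst (-0.24), Fbln2 (-0.0590), Csf2rb (-0.50), Gadd45b (-0.22), Fli1 (0.0391) and Hspe1 (-0.18); the cause was not tested. Signal at the bright end of the bleomycin arrays limits what can be said of falls of bright genes.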
